A study of Drosophila melanogaster with 17 samples.

Results

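Adenosine positions of Drosophila melanogaster microRNAs were examined for A>G changes, the readout of A-to-I RNA editing. A member was 1 nucleotide of 1 miRNA arm with A as its reference base, numbered 1 to 18 from the 5′ end, with at least 1000 reads in the 0 h library of its group. Of 2628 listed positions at these nucleotides 668 had A as reference, and 435 were members in at least 1 group. They lay on 94 arms of 57 hairpins. The unoxidised libraries held 403 members on 89 arms, the oxidised libraries held 287 on 63 arms, and 255 were members in both. Of the others 148 were members in the unoxidised libraries alone and 32 in the oxidised libraries alone. Neighbouring members of an arm share its reads, so they are not replicates of each other.

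All libraries came from wild type Schneider 2 (S2) cells, a line derived from fly embryos, grown at 25 °C. Cells received 500 µM 4-thiouridine (s4U), a uridine analogue that labels new RNA, for 0, 0.25, 0.5, 1, 3, 6, 12 or 24 h, where 0 h means no s4U. The RNA was alkylated with iodoacetamide (IAA), which makes s4U read as C, and each preparation was split into an unoxidised portion (8 libraries) and one oxidised with NaIO4 (8 libraries). A further library had neither s4U nor IAA nor oxidation. Each time had 1 library per group, and nothing in the labels calls the times separate cultures, so p-values measure the spread between these libraries. The edgeR tests also pool that spread over the tested members, some of which share reads. Very small edgeR p-values therefore do not rest on the spread of 1 position alone.

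Adenosine deaminases acting on RNA (ADARs) convert A to I within double-stranded RNA, and sequencing reads I as G. Hairpin precursors of miRNAs are double-stranded and can be edited, which can alter processing or, within the seed (nucleotides 2 to 8), the targets recognised. Editing produces neither A>C nor A>T, so those changes at the same base served as the comparison. NaIO4 oxidises the free 3′ end of RNA, which then cannot be ligated, and small RNAs that Hen1 has methylated after loading into Ago2 resist it.

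The sequences below are the arms on which the results turn, printed 5′ to 3′ as RNA with the members discussed in capitals. Coordinates follow the dm6 (BDGP6) assembly and each lies within the annotated miRNA gene of that name. The first set holds the arms with the highest A>G shares relative to A>C and A>T.
miR-33-3p: caauAcaacuucagugcaagcu
miR-13a-3p: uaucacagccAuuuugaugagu
miR-190-3p: cccaggaAucaaacauauuauu
MiR-33-3p lies at chr3L:19798025-19798046 on the plus strand with its capital A, nucleotide 5, at 19798029. MiR-13a-3p lies at chr3R:15417548-15417569 on the minus strand with nucleotide 11 at 15417559. MiR-190-3p lies at chr3L:8571863-8571884 on the plus strand with nucleotide 8 at 8571870.

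The second set shows nucleotides 3, 10 and 12, at which shares differed between the library groups on several arms.
bantam-3p: ugAgaucauuuugaaagcugau
miR-277-3p: uaAaugcacuaucugguacgac
miR-304-5p: uaAucucaauuuguaaauguga
miR-282-3p: acauagccuAuAagagguuagg
miR-252-5p: cuaaguacuAgugccgcaggag
Bantam-3p lies at chr3L:642259-642280 on the plus strand, miR-277-3p at chr3R:10100080-10100101 on the plus strand and miR-304-5p at chrX:15508970-15508991 on the plus strand. MiR-282-3p lies at chr3L:3251081-3251102 on the plus strand and miR-252-5p at chr3R:13464275-13464296 on the minus strand.

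Libraries held 19041816 to 28351872 small RNA reads without oxidation and 19074278 to 42511487 with it. All 10 of 10 miRNAs listed as abundant in S2 cells were in each mismatch table. Of 5 miRNAs of muscle, neurons or late development 0 were in the unoxidised one and 1, let-7-5p, in the oxidised one. The median member had 25515 reads at 0 h in the unoxidised and 8060 in the oxidised group, and the lowest depth in any library was 646 and 82 reads. In 303 of 403 unoxidised and 160 of 287 oxidised members every library reached 3000 reads, the depth at which a share of 0.1% gives 3 reads.

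A>G shares at most A positions were under 0.05% of reads. The median member had an A>G share of 0.0163% in the unoxidised libraries (interquartile range 0.0113 to 0.0433, 403 members, each taken as its median over 8 libraries). In the oxidised ones it had 0.0121% (interquartile range 0 to 0.0187, 287 members). The median was 0 at 62 and 88 members. With the reads of a group summed, the exact 95% upper bound of the A>G share was under 0.1% at 335 of 403 unoxidised and 264 of 287 oxidised members. The bound covers counting error only.

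No position kept a steady A>G share by the rule used. Steady meant an A>G share of at least 0.1% that was at least 5 times both A>C and A>T in all 8 libraries of a group, with the highest share at most 2 times the lowest. The rule was met at 0 of 403 unoxidised and 0 of 287 oxidised members, and no member reached the 5-fold condition in all 8 libraries. The condition on highest against lowest was met by itself at 121 unoxidised and 26 oxidised members, and at low depth counting error can break it. At nucleotide 3 of the unoxidised group median A>C and A>T were 0.126% and 0.149%, so 0.1% A>G could not be 5 times both. The rule could therefore miss a steady share near 0.1% at such members. A>G reached 0.1% in every unoxidised library at 25 members, 23 of which were nucleotide 3, the others being miR-13a-3p nucleotide 11 and miR-184-3p nucleotide 18. In the oxidised libraries 0 members did so. A>G exceeded both A>C and A>T in 8 of 8 libraries at 24 unoxidised members (5.96%) and 2 oxidised members (0.697%), both of them on miR-33-3p.

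Nucleotide 5 of miR-33-3p stood closest to the rule. miR-33 is encoded in an intron of the fly SREBP gene and is known from lipid metabolism. Its 3p arm was the passenger, the less abundant arm, and nucleotide 5 lies in its seed. In the unoxidised libraries its A>G share was 0.184%, 0.131%, 0.150%, 0.161%, 0.165%, 0.107%, 0.0817% and 0.114% in order of time from 0 to 24 h. These shares rest on 30028 to 57067 reads per library. In the oxidised libraries the A>G share was 0.208%, 0.137%, 0.106%, 0.127%, 0.126%, 0.109%, 0.0644% and 0.105% at the same times, on 25907 to 132466 reads. The 0 h library was highest and the 12 h library lowest in both groups, and the ranges of the groups overlapped.

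The other changes at this A were far lower. The median A>C share was 0.00248% without oxidation and 0.00827% with it, and the median A>T share 0.0173% and 0.0247%. A>G exceeded both in all 16 libraries. It was at least 5 times both in 7 of 8 unoxidised libraries, the exception being 12 h, and in 3 of 8 oxidised ones. Across libraries A>G was 37.6-fold above A>C (log2 5.23 ± 0.26) and 8.21-fold above A>T (log2 3.04 ± 0.21) in the unoxidised group. The value after ± is an SE derived from the edgeR F statistic, which can be too small for large changes on few reads. The edgeR adjusted p was 1.19e-75 and 2.67e-09 (n = 8 libraries). In the oxidised group it was above A>C by 3.91 ± 0.20 and above A>T by 2.38 ± 0.16 on the log2 scale, with edgeR adjusted p of 1.94e-14 and 4.04e-17. The position was singled out by these same shares, so the p-values describe it and add no separate support. By the same tests A>G was above A>C at 145 of 161 unoxidised members and above A>T at 45.

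**Figure D1:**
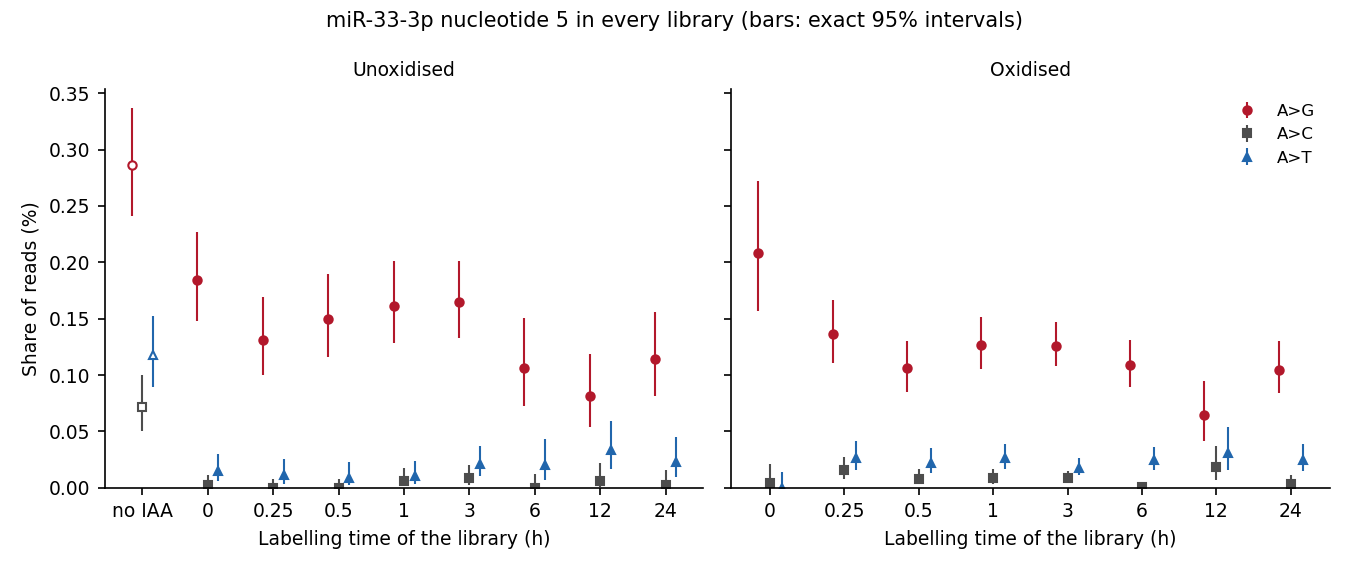
Share of reads with G, C or T in place of A at nucleotide 5 of miR-33-3p (y axis, %) against labelling time (x axis, h, equal spacing), left for unoxidised libraries with the library without s4U and IAA as open symbols, right for oxidised libraries. Points are single libraries and bars exact 95% intervals; A>G lies between 0.0644% and 0.208% in the 16 libraries of the time courses, above A>C and A>T in each.

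The level was not constant beyond counting error. Its highest share was 2.26 times its lowest without oxidation and 3.23 times with it, and chi-square over degrees of freedom across the 8 libraries was 3.28 and 4.79. The same ratio had a median of 1.14 over the 161 tested unoxidised members and 1.02 over the 44 tested oxidised ones. Members of one arm are the nearest comparison: miR-33-3p has A at nucleotides 2, 3, 5, 7, 8, 13 and 18, and at nucleotide 3 the unoxidised A>G share was 0.216% (median, range 0.172 to 0.246) with A>C at 0.139% and A>T at 0.137%. That pattern of 3 raised changes was not seen at nucleotide 5 in these libraries.

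Among A positions at nucleotide 5 miR-33-3p ranked 1 of 40 in the unoxidised and 1 of 34 in the oxidised group. The next were miR-305-3p with 0.0272% and miR-999-3p with 0.0423%. No arm of another hairpin differing by at most 2 bases carries G there, and the first 18 bases with G in place of A differ by at least 4 bases from every other window of the listed hairpins. The A is preceded by U and followed by C and is unpaired in the minimum free energy structure of its hairpin. Fly and mammalian ADARs favour a 5′ neighbour U or A and act within double-stranded RNA. Whether editing gave the A>G reads at this A was not tested.

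The library without s4U and IAA gave another picture at this nucleotide. There miR-33-3p nucleotide 5 showed 0.286% A>G (exact 95% interval 0.241 to 0.337), 0.0720% A>C and 0.118% A>T among 49997 reads. All 3 changes were raised at nucleotide 5 in that library across arms, with medians of 0.129%, 0.0676% and 0.138% over 40 members. One library carries this comparison, so it has no test.

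Other arms gave high shares on few reads. MiR-13a-3p, a guide of the miR-2 family, had the highest median at nucleotide 11, 0.449% A>G with a range of 0.132% at 0.5 h to 1.13% at 3 h. Its median A>C share was 0 and its median A>T share 0.0616%. Only 72 of 13537 reads carried G, and 5 times both other changes was reached in 6 of 8 libraries. The mean of 9 reads per library was below the 10 needed for a test. The changed 18-mer differs by 2 bases from miR-13b-1, a hairpin of the same family, and the unchanged one by 1. In the unoxidised libraries miR-13b-2-3p stood at 15715 RPM, while miR-13a-3p had 1472 to 2118 reads per library at this nucleotide. Whether miR-13b reads entered the miR-13a counts was not tested.

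MiR-190-3p nucleotide 8, named after its values were seen, had a median of 0.104% A>G, from 0.0807% at 0.5 h to 0.872% at 6 h. The hairpin lies in an intron of rhea, the talin gene. G was read in 34 of 17685 reads, with A>C at 0 in all 8 libraries and A>T at 0 in all but the 6 h library. In the library without IAA it was 0.202%, from 7 of 3470 reads. In the oxidised group miR-7-5p nucleotide 7 had the highest median, 0.124%, from 0 to 2 G reads per library among 443 to 1921. The same A stood at 0.0209% in the unoxidised libraries, on 21542 to 32807 reads. MiR-281-1-5p nucleotide 1 likewise rested on 0 to 2 reads per oxidised library.

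**Figure D2:**
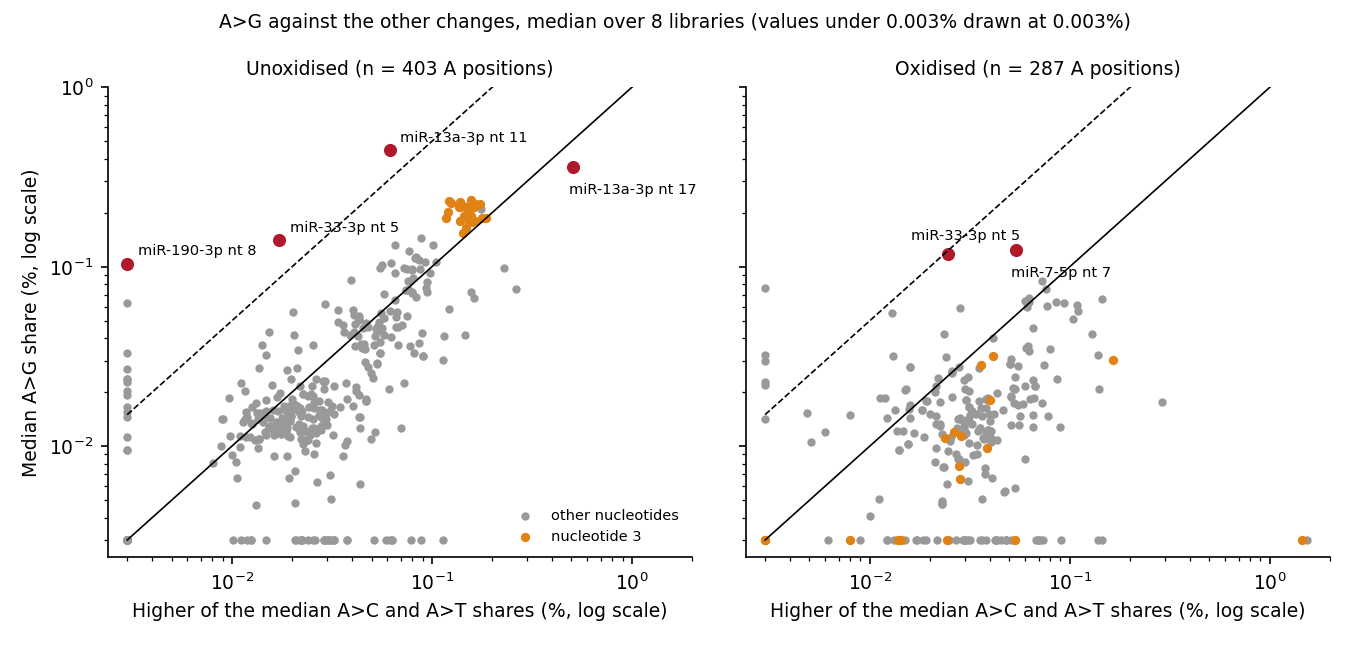
Median A>G share of each A position (y axis, %, log scale) against the higher of its median A>C and A>T shares (x axis, %, log scale), 403 positions in the unoxidised and 287 in the oxidised libraries, with values under 0.003% drawn at 0.003%. The solid line marks equal shares and the dashed line 5 times; positions of nucleotide 3 (orange) lie together just above the solid line without oxidation, and the named positions are red.

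Which of the 3 changes dominated was tested across libraries. With edgeR adjusted p under 0.05 in both tests, A>G was above A>C and A>T at 42 of 161 unoxidised members (26.1%) and below both at 0 (0.0%; 0 also with limma, and 0 to 1 with 1 library left out). In the oxidised libraries A>G was above both at 3 of 44 (6.82%) and below both at 3 (6.82%), and with 1 library left out at 1 (without 0 h or 24 h) to 3 and at 3 to 6 (without 0.5 h or 12 h). These members were chosen by a mean of at least 10 A>G reads, which favours A>G over the other changes. Without that filter A>G was above both at 46 of 399 unoxidised (11.5%) and 2 of 274 oxidised members (0.730%). The 3 above were miR-33-3p nucleotides 5 and 18 and miR-184-3p nucleotide 18. The 3 below were bantam-5p nucleotide 11, miR-282-3p nucleotide 15 and miR-2a-2-5p nucleotide 5, named after their values were seen. Most of the excesses were small. Among the 42 the smaller of the 2 folds was over 2 at 2 members, miR-33-3p nucleotide 5 with 8.21 and miR-184-3p nucleotide 17 with 2.05. At miR-184-3p nucleotide 17 the A>G share was uneven, with a median of 0.0185% and a highest library of 0.0789%, beside a median A>T of 0.00967%. Of the 42 members 34 lay at nucleotides with raised shares of every change, described next. The other 8 lay elsewhere, where 88 of the 161 tested members were.

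A>G, A>C and A>T were raised together at certain nucleotide numbers on many arms. In the unoxidised group nucleotides 1, 3, 12, 13, 15, 16 and 18 had a median A>G share at least 2 times the median over the 18 nucleotides, a criterion chosen after seeing the data. Their medians ran from 0.0324% at nucleotide 12 to 0.209% at nucleotide 3, against 0.00950% to 0.0179% at the remaining nucleotides. At nucleotide 3 all 28 of 28 members had a median of at least 0.1%, and A>C and A>T stood at 0.126% and 0.149%. Mismatches were also raised where the reference was not A, with 0.735% of reads at C and 0.676% at G at nucleotide 3 against 0.0842% and 0.0902% at nucleotide 2.

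Single arms at nucleotide 3 were close to each other. Bantam-3p, a growth-promoting guide with 2992607 to 3517723 reads per library, had 0.166% A>G (range 0.163 to 0.170), 0.143% A>C and 0.148% A>T. MiR-277-3p, a guide that loads Ago2 and is known from amino acid catabolism, ranged from 0.196% to 0.258%. MiR-304-5p ranged from 0.185% to 0.240%, with a median of 0.230%. The arms with the highest medians at this nucleotide, miR-7-3p with 0.237% and miR-2279-5p with 0.232%, had 1 to 8 G reads per library. MiR-1012-3p had a median of 0.227%, miR-277-3p 0.226%, miR-1006-3p and miR-9c-3p 0.225% each and miR-283-5p 0.220%. Spread over libraries was within counting error for bantam-3p, with a chi-square over degrees of freedom of 0.860.

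The raised nucleotides differed between the groups of libraries. In the oxidised group they were 10 and 12, with medians of 0.0602% and 0.0569%, and nucleotide 3 stood at 0.00715%. In the library without s4U and IAA they were 3, 5, 10, 13, 15 and 18, with medians of 0.0547% to 0.132%. The labels give no sequencing run, so oxidation and any run shared by the libraries of a group cannot be told apart.

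**Figure D3:**
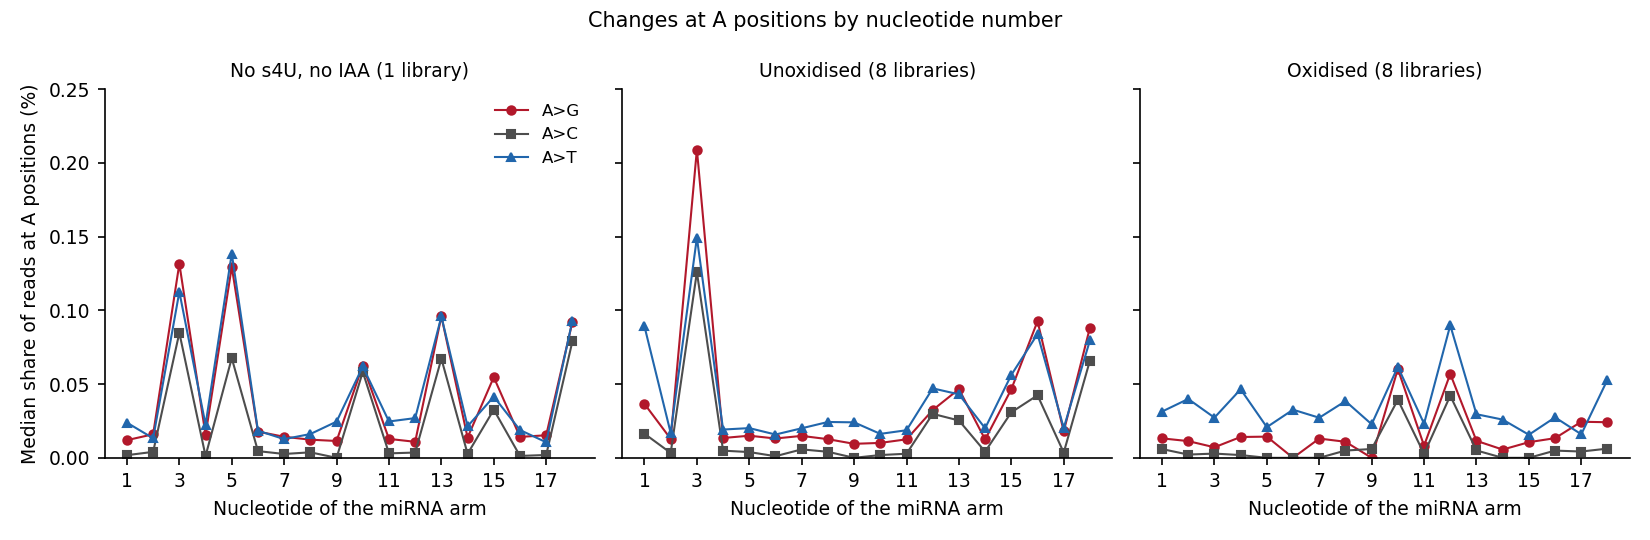
Median share of reads (y axis, %) with G, C or T at A positions, by nucleotide of the arm (x axis), for the library without s4U and IAA, the 8 unoxidised and the 8 oxidised libraries. Lines join nucleotides for the eye; the 3 changes peak at the same nucleotides, such as 3 without oxidation (A>G 0.209%) and 10 and 12 with it.

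Outside the raised nucleotides A>G was low in every context. The 269 such unoxidised members had medians of 0.0131% A>G, 0.00335% A>C and 0.0195% A>T, and the 269 oxidised ones 0.0115%, 0.00213% and 0.0283%. By 5′ neighbour the unoxidised median A>G was 0.0109% after A, 0.0148% after C, 0.0145% after G and 0.0124% after U. By 3′ neighbour the unoxidised median A>G was 0.0133% before A, 0.0142% before C, 0.0156% before G and 0.0109% before U. It was 0.0131% at paired and 0.0137% at unpaired bases, and 0.0136% on guides and 0.0114% on passengers. The 5 most abundant arms, at 23771 to 147021 RPM (reads scaled to the library total), had 0.0123% to 0.0275% at their 16 members outside these nucleotides. These are descriptions without a test.

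Labelling time did not move any A>G share past the threshold. With edgeR, 0 of 161 unoxidised members had a slope on log2(1 + h) at adjusted p under 0.05 (0.0%), 5 had an unadjusted p under 0.05, and limma and DESeq2 also called 0. In the oxidised group 0 of 44 passed (0.0%), 2 had an unadjusted p under 0.05, and limma and DESeq2 called 0. Slopes were positive at 86 and negative at 75 unoxidised members, and at 23 and 21 oxidised ones. The median 95% half-width of a slope was 0.12 log2 units per unit of log2(1 + h), which over the 24 h is 0.57, and 0.15 or 0.67 in the oxidised group.

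MiR-33-3p nucleotide 5 had a slope of -0.17 ± 0.06 without oxidation (SE; unadjusted p 0.0175, edgeR adjusted p 0.964) and -0.15 ± 0.05 with it (0.0101 and 0.443). It had the lowest unadjusted p of the oxidised group. Without the 0.5 h library the edgeR adjusted p in that group was 0.0443 with a slope of -0.18. Meanwhile T>C at the 4 U positions of the same arm, the s4U readout, went from 0.0267% at 0 h to 1.39% at 24 h without oxidation and from 0.0232% to 0.904% with it. The lowest unadjusted p of the unoxidised group, 0.00358, belonged to miR-34-5p nucleotide 5 (slope 0.17 ± 0.04, edgeR adjusted p 0.577).

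Summed over all members, the A>G share per library was 0.0476% ± 0.0059 (SD, n = 8) without and 0.0224% ± 0.0017 with oxidation. Against time the sums gave Pearson's r of -0.10 (exact permutation p 0.937) and Spearman's rho of 0.00 (exact permutation p 1.00) without oxidation, and -0.09 (exact p 0.947) and -0.24 (exact p 0.582) with it. All adjusted p over 6 relations were at least 0.873. Without the 2 libraries farthest in time r was 0.92 and -0.23. The unoxidised sum was highest in the 6 h library, with 0.0616%. With the 6 h library left out r was -0.37 over 7 libraries, and 0.55 over the 5 that remain without the 2 farthest in time.

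The 6 h unoxidised library stood apart at the end of the window. Its median A>G share was 0.0798% at nucleotide 17, against 0.0140% to 0.0316% in the other 7 libraries, and 0.214% at nucleotide 18, against 0.0755% to 0.105%. It was the highest library at 13 of 16 and 19 of 22 members there. A>C and A>T were higher there too, at 0.0187% and 0.0473% for nucleotide 17 and 0.104% and 0.144% for nucleotide 18. MiR-13a-3p nucleotide 17 reached 6.65% A>G in that library, with 4.05% A>C and 3.64% A>T among 1730 reads, and was at 0 at 0, 12 and 24 h.

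Oxidation went with lower A>G at many members, by nucleotide number. Of 128 members tested in the 8 pairs of libraries that share a time, 49 were lower (38.3%) and 8 higher (6.25%) in the oxidised libraries at edgeR adjusted p under 0.05. The filter on A>G reads was passed in the unoxidised group alone by 87 members, 35 of them lower, in the oxidised group alone by 8, 2 of them higher, and in each group by 33, of which 14 were lower and 6 higher. The calls followed the raised nucleotides, which were themselves defined from these A>G shares, so their counts are a description. Of the 47 tested at nucleotides raised only without oxidation 45 were lower, with a median log2 change in the odds of G of -2.06. All 6 tested at nucleotide 10, raised only with oxidation, were higher, with a median of 1.94, and so were 2 of 4 at nucleotide 12. Of the remaining 71, 4 were lower and 0 higher, with a median of -0.01. The 4 were miR-980-3p and miR-995-3p nucleotide 2, miR-277-3p nucleotide 8 and bantam-3p nucleotide 14. Fitted without the raised nucleotides those 71 gave 0 calls (0.0%; 7 at an unadjusted p under 0.05).

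The largest falls were at nucleotide 3. MiR-277-3p nucleotide 3 went from 0.196% to 0.258% across the unoxidised libraries to 0 to 0.0151% across the oxidised ones, a log2 change of -4.72 ± 0.23 (edgeR adjusted p 6.78e-77, lower in 8 of 8 pairs). MiR-283-5p changed by -4.86, and miR-33-3p, miR-8-3p (of the conserved miR-200 family) and miR-14-3p (known from cell survival and fat metabolism) by -4.32, -4.24 and -4.21. The groups did not overlap at any of these 5, which were picked as the largest falls, so this describes them alone. Of the 13 members tested at nucleotide 3, at -4.86 to -2.17, only miR-252-5p passed the filter on A>G reads in the oxidised group as well, so the others could only be tested because they were high without oxidation. A>C and A>T were lower there too: for miR-277-3p the medians were 0.127% and 0.157% without and 0.00126% and 0.0283% with oxidation. With A>C plus A>T as the reference the falls were smaller, at -1.62 for miR-277-3p, -1.52 for miR-283-5p, -1.29 for miR-33-3p, -1.14 for miR-8-3p and -1.43 for miR-14-3p.

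The largest rises were at nucleotide 10. MiR-282-3p nucleotide 10 had 0.00502% to 0.0142% A>G without and 0.0594% to 0.0756% with oxidation, a log2 change of 2.65 ± 0.23 (edgeR adjusted p 3.04e-27, higher in 8 of 8 pairs). MiR-995-3p, miR-184-3p, miR-252-5p and miR-14-5p changed by 2.26, 2.12, 1.75 and 1.74. The groups did not overlap at these 5 members, which were picked as the largest rises, so this too describes them alone. MiR-282-3p and miR-14-5p passed the filter on A>G reads in the oxidised group alone, where they are high. A>C and A>T were higher there too: for miR-252-5p the medians were 0.00211% and 0.0126% without and 0.0435% and 0.0625% with oxidation. With A>C plus A>T as the reference instead of all other reads, miR-252-5p changed by -1.07 and miR-184-3p by 0.28 (edgeR adjusted p 0.0342). At nucleotide 12 miR-988-3p and miR-282-3p were higher, by 0.99 and 0.60.

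**Figure D4:**
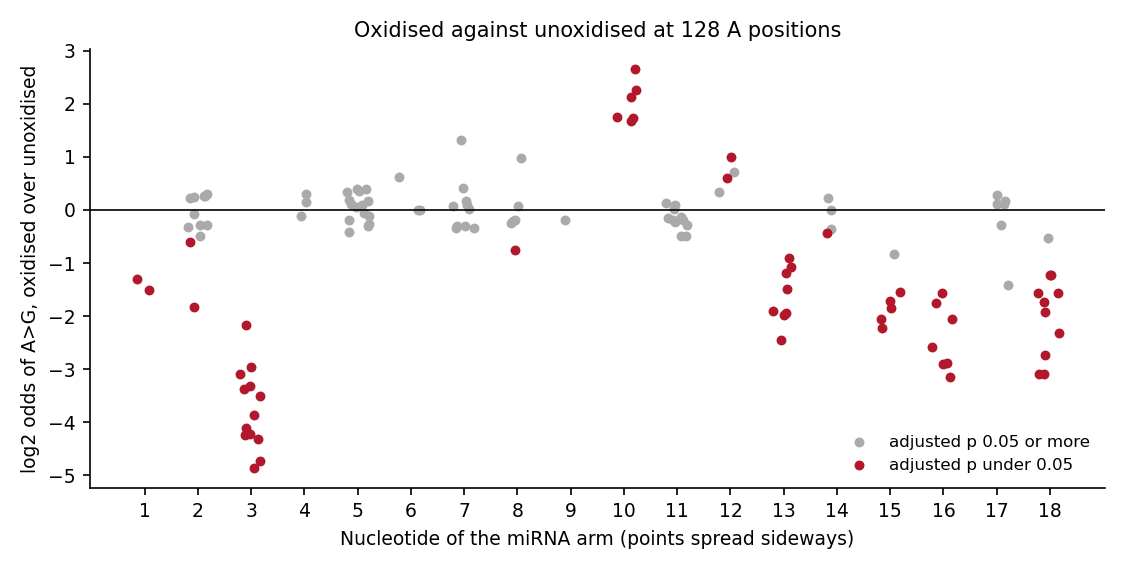
Log2 change in the odds of A>G, oxidised over unoxidised (y axis), by nucleotide of the arm (x axis), for 128 A positions tested with edgeR; red points have an adjusted p under 0.05. The 13 points at nucleotide 3 lie between -4.86 and -2.17, the 6 at nucleotide 10 between 1.68 and 2.65, and most at nucleotides 2, 4 to 9, 11, 14 and 17 near 0.

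The share at miR-33-3p nucleotide 5 was not distinguishable between the groups. Its mean was 0.137% ± 0.034 (SD, n = 8) without and 0.123% ± 0.041 with oxidation, lower in 5 of 8 pairs and higher in 3. The log2 change was -0.18 with a 95% interval of -0.48 to 0.11 (edgeR adjusted p 0.369). Against A>C plus A>T the change was -0.78 with an edgeR adjusted p of 0.0144, beside A>C and A>T medians that were higher in the oxidised libraries. Nucleotides 3, 13 and 18 of the same arm, all raised without oxidation, changed by -4.32, -1.95 and -2.72.

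Over the 254 members with the same arm start in both tables, the summed A>G share was lower in the oxidised library of 8 of 8 pairs, by 0.0252 percentage points on average (SD 0.0066, exact paired permutation p 0.00781, the smallest that 8 pairs allow, adjusted p 0.0117 over 3 changes). A>C was also lower in 8 of 8 pairs (exact p 0.00781, adjusted 0.0117), and A>T in 7 of 8 (exact p 0.0625). Such sums weigh abundant arms most, and the sums and the medians below include the raised nucleotides, which differ between the groups. At the 71 tested members at nucleotides raised in neither group the median log2 change was -0.01, with 4 lower and 0 higher. Taken as the median over the 254 members, A>G was 0.0178% ± 0.0012 (SD over 8 libraries) without and 0.0134% ± 0.0016 with oxidation, lower in 8 of 8 pairs, while A>T was 0.0261% ± 0.0019 and 0.0317% ± 0.0030, higher in 8 of 8 pairs (exact paired permutation p 0.00781 for each, the same after adjustment over 3 changes). Without IAA and s4U the member median was 0.0219% against 0.0178% at 0 h with IAA. A>G was higher at 213 members, lower at 163 and equal at 27, with 1 library on each side and no test.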

How the data were processed

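The submitters' processing notes name cutadapt 1.7.1, Bowtie 1.2.2, Picard and dm6; settings and allowed mismatches are not given in the sources at hand. The deposited mismatch tables give counts of reads showing each base along an arm, 1 table for unoxidised and 1 for oxidised libraries, and further deposited tables give read counts per library. Per the labels, RNA of 18 to 30 nt was cloned with adapters carrying 4 random bases. Reads were not collapsed to molecules here, so intervals cover counting error only. The members and lists were chosen with earlier results of these data known.

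Shares are reads with a base over all reads at the position. Tests used edgeR 4.0.16 (quasi-likelihood F test, R 4.3.3) on pairs of count columns per library, with library as a factor and equal library sizes, for members with a mean of at least 10 A>G reads per library. Oxidation used labelling time as a block, since both portions came from the same RNA. P-values were adjusted by Benjamini-Hochberg over all members tested, at 0.05. Limma 3.58.1 (0.5 added to each count) and DESeq2 1.42.0 were second tools. On simulated data with known changes of 1 log2 unit edgeR recovered 71.9% of 32 changed members for time without oxidation, 28.6% of 7 for time with oxidation and 64% of 25 for oxidation, with 0 false calls. For time, 1 log2 unit spanned the whole labelling range. The simulated noise was independent between members and libraries. It held no effect shared within a library, such as that of the 6 h library, so the 0 false calls apply to that setting only. Intervals are Clopper-Pearson. RNAfold 2.7.2 gave the pairing. Coordinates (1-based) come from the BDGP6 annotation, which matched 94 of 96 hairpins; 124 of 142 arm starts equalled the annotated mature start. Of the members 33 unoxidised and 30 oxidised repeat the first 18 bases of another arm. In each group 0 of them had counts identical to that arm, and how reads were divided between such arms is not given.

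Named positions were the 10 highest median A>G shares without and the 5 highest with oxidation, the 5 largest changes each way in each test and the members of the 5 most abundant arms; others are said to be named after their values were seen. Alternatives were the other tools, no filter, 10000 reads at 0 h, A>C plus A>T as the reference, nucleotides 2 to 18, time in h, no block, each library left out and, chosen after seeing the data, 1 copy per 18-base sequence, leaving out the raised nucleotides and a looser steady rule.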

Additional observations from a re-analysis of the deposited data

Results flagged for a closer look

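Of 39 sets of 8 libraries at named positions 4 had 1 library far from the nearest other. The rule is meant to flag about 1 in 20 sets by chance. That rate need not hold for positions named for high shares or large changes, or for sets of few reads. MiR-13a-3p nucleotide 17 had 6.65% A>G in the 6 h unoxidised library, and A>C and A>T were raised in the same library. MiR-190-3p nucleotide 8 had 0.872% in the same library, from 9 of 1032 reads. MiR-184-3p nucleotide 10 had its lowest oxidised share, 0.0517%, at 0.25 h. MiR-2279-5p nucleotide 3 had 0.0708% in the oxidised 0 h library, from 1 read of 1413, and 0 in the other 7.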

How the results depend on the processing

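The count of steady positions stayed at 0 in both groups under each looser or stricter threshold, including one with all 3 loosened together that was chosen after seeing the data. With single libraries left out it ranged from 0 to 1 without oxidation, the 1 being miR-33-3p nucleotide 5 without the 12 h library. Time calls stayed at 0 under every alternative except that leaving out single libraries gave 0 to 1 lower in the oxidised group (1 without 0.5 h). For oxidation, higher calls went from 8 to 12 with limma, 2 against A>C plus A>T and 0 without the raised nucleotides. Lower calls went from 49 to 30 of 76 tested at 10000 reads, where fewer members were tested, and 0 without the raised nucleotides. Against A>C plus A>T, nucleotide 10 reversed for miR-995-3p (-0.51), miR-252-5p (-1.07) and miR-14-5p (-1.06), while miR-184-3p stayed higher (0.28, edgeR adjusted p 0.0342), miR-282-3p had 0.33 (edgeR adjusted p 0.491) and miR-283-5p nucleotide 3 -1.52 (edgeR adjusted p 0.1003); the cause was not tested. Unoxidised members with A>G above both numbered 8 of 88 tested without the raised nucleotides, instead of 42 of 161. With single libraries left out, those below both ranged from 0 to 1 without oxidation (1 without 3 h or 6 h), and in the oxidised group those above both from 1 to 3 (1 without 0 h or 24 h) and those below both from 3 to 6 (6 without 0.5 h or 12 h). Without the pairing by time (no replicate block) 10 were higher and 47 lower. Without the filter on A>G reads 11 were higher and 70 lower of 254. Fewer A>G reads left 44 oxidised members to test against 161, at lower depth and lower shares, whose parts were not separated.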
